A study of Canis lupus familiaris with 60 samples.

Results

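IL6, OSMR, SOCS3 and BCL3 are 4 genes of the signalling route of the interleukin-6 family, and their signals were followed in skin biopsies of Beagle dogs that were patch tested with house dust mite allergen. A probe was taken as a member when its identifier on the array, without the version, was NM_001003301 (IL6), ENSCAFT00000029605 (OSMR), ENSCAFT00000008545 (SOCS3) or CO705157 (BCL3), or when the annotation of the gene list of the study gave it one of these symbols, which added DN877577 for OSMR. The rule found 6 of the 60068 probes on the array, 2 each for IL6 and OSMR and 1 each for SOCS3 and BCL3, and all 6 were past the filter on dim probes together with 45972 probes in all. The brighter probe stands for a gene that has 2. Only IL6 was named by a RefSeq accession, whereas the names of the OSMR, SOCS3 and BCL3 probes rest on the annotation of the study.

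The study compared skin of 6 dogs sensitized to Dermatophagoides farinae (4 males and 2 females, with a positive intradermal test and specific IgE) with skin of 6 nonsensitized dogs (2 males and 4 females). The dogs were 2 to 3 yr old (mean 2.3 yr) and of a single breed, and the sensitization was experimental. The lateral chest was clipped 4 days before patches with 75 mg of mite paste in saline or with 50 µl of saline alone were applied, so that every dog served with both treatments. Each dog gave 5 punch biopsies of 8 mm. In each group of dogs these were untreated skin at 0 hr, saline and allergen sites at 6 hr, and saline and allergen sites at 24 hr, which makes 10 groups of 6 arrays. One array, from the 24 hr allergen site of the sensitized dog 2839, was left out as in the methods of the study, so this group held 5 arrays and 59 arrays were used.

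Interleukin-6, the product of IL6, is a cytokine that is released early in inflammation and injury. Its receptor uses the shared chain gp130 and activates JAK kinases, which phosphorylate the transcription factor STAT3. OSMR is the receptor chain that pairs with gp130 to bind oncostatin M and with IL31RA to bind interleukin-31, a cytokine known for causing itch. SOCS3 is induced by STAT3 and blocks signalling at gp130, and is therefore a feedback inhibitor of the route. BCL3 is a nuclear member of the IkB family that binds NF-kB p50 and p52 dimers, and it is a known target of STAT3. In skin, keratinocytes, fibroblasts, endothelial cells and infiltrating leukocytes can all take part in this signalling.

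Levels are given as log2 normalized signal, in which 1 unit is a 2-fold difference in bright probes and stands for more than that in dim ones, and levels of different probes were not compared. A probe was called when its adjusted p (limma, Benjamini-Hochberg over 45972 probes) was below 0.05 and its change was at least 1.5-fold. The probes of OSMR, SOCS3 and BCL3 given first were well above background on all 59 arrays. Of the 12 arrays of untreated skin, none had IL6 well above background. A fold given as at least a value is a bound under the main scaling, and other settings can give smaller differences. The arrays were close in quality, with a median processed signal of 81.7 to 146.1 and a share of spots well above background of 68.85% to 80.15% over the 59 arrays. KRT1, the only 1 of 5 keratinocyte markers with a named probe, was well above background on every array, with a signal of 15.92 to 17.71. Whole biopsies were measured, so fewer cells of a type and less RNA per cell cannot be told apart.

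In untreated skin no difference between the groups of dogs was found for the 4 genes. IL6 lay between 3.51 and 4.35 in sensitized dogs (median 3.63) and between 3.68 and 4.00 in nonsensitized dogs (median 3.90), at or below background throughout. OSMR had medians of 6.41 and 6.34 in sensitized and nonsensitized dogs, SOCS3 medians of 6.85 and 6.73, and BCL3 medians of 6.80 and 6.72. All these ranges overlapped. The largest difference between the groups of dogs in the 3 genes above background was 0.04 for SOCS3 (SE 0.26, adjusted p = 1.00). None of the 4 genes was called or had an unadjusted p below 0.05, and 0.00218% of all probes were called.

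**Figure D1:**
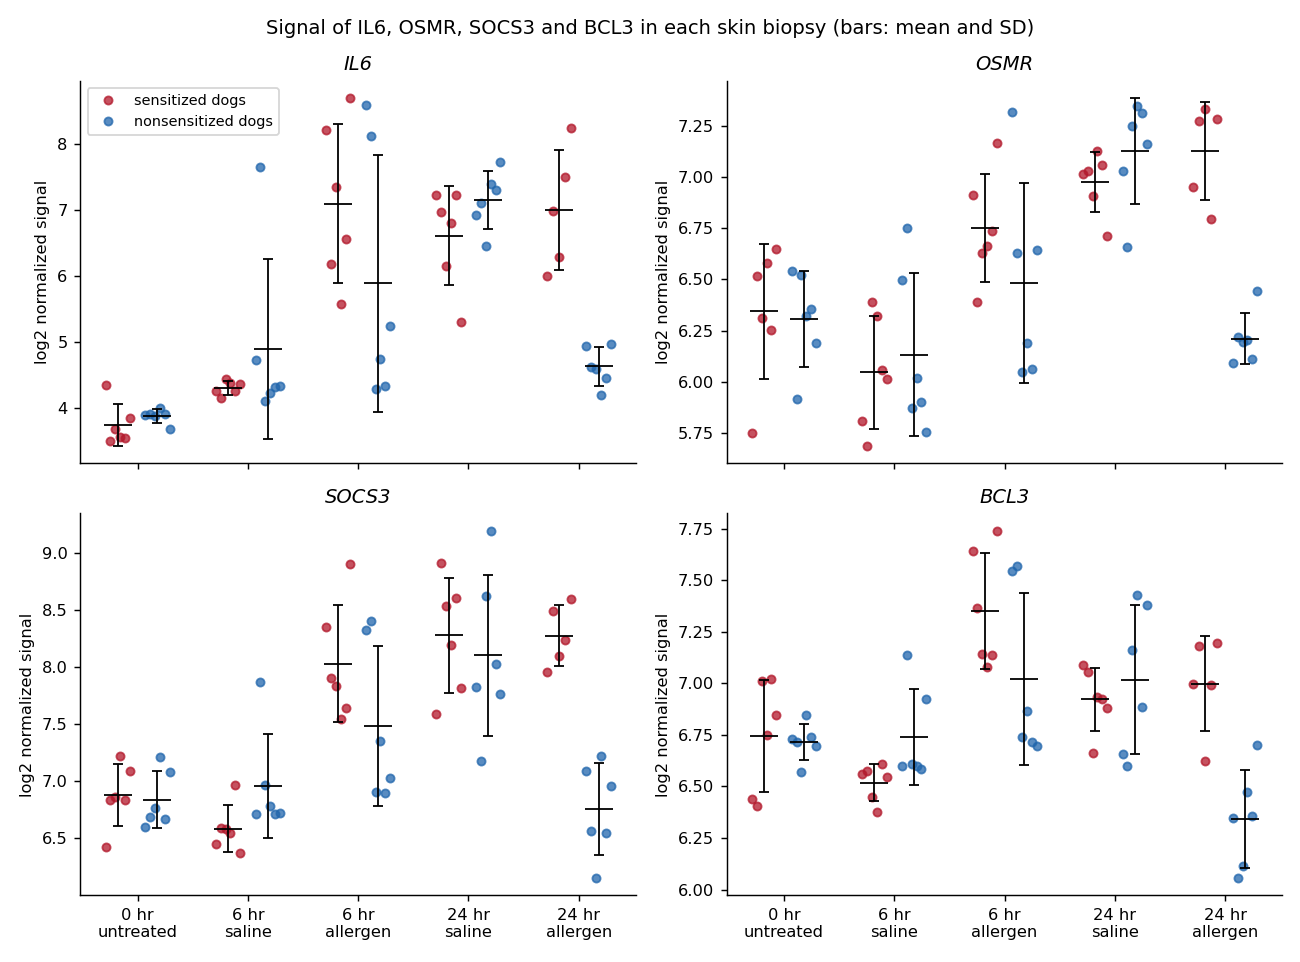
Log2 normalized signal (y axis) of IL6, OSMR, SOCS3 and BCL3 in each biopsy at the 5 sites (x axis), with points for sensitized (red) and nonsensitized dogs (blue) and bars for the mean and SD of 6 dogs (5 at the 24 hr allergen site of sensitized dogs). In all 4 panels the nonsensitized allergen site at 24 hr is low beside the other 24 hr groups, with an IL6 mean of 4.63 against 7.15 at their saline site.

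At 6 hr all 4 genes were higher at the allergen site than at the saline site of sensitized dogs. IL6 rose by 2.78 on the log2 scale (SE 0.53), SOCS3 by 1.45 (SE 0.26), BCL3 by 0.83 (SE 0.15) and OSMR by 0.71 (SE 0.17), and each gene was higher in 6 of 6 dogs. All 4 were called higher, against 0.402% of all probes in this comparison. The rule for the genes did not use this contrast, though the genes were picked with earlier results of these data known.

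IL6, the cytokine, had 4.15, 4.31 and 4.44 as its lowest, median and highest signal at the 6 hr saline site of sensitized dogs, and no array there had it well above background. At their allergen site it had 5.57, 6.95 and 8.68 and was well above background on all 6. The groups did not overlap, and since the saline level is only a bound, IL6 was at least 4.48-fold higher at the allergen site under the main scaling. The measured log2 difference of 2.78 had an adjusted p of 0.00282. The change within dogs ran from 1.19 in dog 2841 to 4.32 in dog 2855. Scaling to the 75th percentile, quantile scaling or no filter gave log2 differences of 5.01, 4.77 and 4.46, and normexp correction gave 1.68, all called.

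OSMR, the receptor chain, had 5.69, 6.04 and 6.39 at the saline site and 6.39, 6.70 and 7.16 at the allergen site. The highest saline value (6.388) and the lowest allergen value (6.391) nearly touched. The difference corresponds to 1.63-fold (adjusted p = 0.0291), and the change within dogs ran from 0.24 to 1.15. SOCS3, the feedback inhibitor, had 6.37, 6.57 and 6.97 at the saline site and 7.55, 7.87 and 8.91 at the allergen site. Its groups were well separated, with a 2.73-fold difference (adjusted p = 0.00165) and changes within dogs of 0.68 to 2.54. BCL3 had 6.37, 6.55 and 6.61 at the saline site against 7.08, 7.25 and 7.74 at the allergen site, again without overlap, a 1.78-fold difference (adjusted p = 0.00128) with changes within dogs of 0.53 to 1.20.

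The calls at 6 hr rested on the joint fit of all 10 groups. In a fit of the 6 hr arrays alone the same differences had adjusted p of 0.0556 for SOCS3 and BCL3, 0.229 for IL6 and 0.288 for OSMR, and none was called. With a dog left out, the IL6 call was lost without dog 2838 (adjusted p = 0.0679), the SOCS3 call without dog 2855 (0.0509) and the OSMR call without dog 2838, 2839, 2853 or 2855 (highest adjusted p = 0.303), whereas BCL3 kept its call each time.

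In nonsensitized dogs the 4 genes were not called at 6 hr, against 0.0348% of all probes. IL6 had 4.11, 4.33 and 7.65 at the saline site and 4.28, 4.99 and 8.59 at the allergen site, with 1 of 6 and 3 of 6 arrays well above background and a difference of 0.99 (SE 0.53, adjusted p = 0.914). The changes within dogs ran from 0.017, between values at background, to 3.87. SOCS3 had 6.71, 6.75 and 7.87 against 6.90, 7.19 and 8.41, a difference of 0.52 (SE 0.26). The ranges of both genes overlapped. OSMR differed by 0.35 (SE 0.17) and BCL3 by 0.28 (SE 0.15), with 5 of 6 dogs higher for each. At an unadjusted p below 0.05, OSMR was the only 1 of the 4. The difference between the groups of dogs in the 6 hr response was 1.79 for IL6 (SE 0.75), 0.92 for SOCS3 (SE 0.37), 0.55 for BCL3 (SE 0.21) and 0.36 for OSMR (SE 0.24). The IL6 value is limited by the saline sites, where 0 of 6 and 1 of 6 arrays had it well above background. None passed the adjusted threshold, though 3 of the 4 had an unadjusted p below 0.05, and 0 of all probes were called in this comparison (0%). A different 6 hr response in sensitized dogs was thus not shown for these genes.

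The spread among the nonsensitized dogs at 6 hr lay in a pair of animals. At the allergen site IL6 was 8.59 in dog 2704 and 8.12 in dog 2716, and between 4.28 and 5.25 in the other 4 dogs. SOCS3 was 8.33 and 8.41 in these 2 dogs against 6.90 to 7.35, and BCL3 7.55 and 7.57 against 6.70 to 6.87. OSMR was high in dog 2704 (7.32), while dog 2716 (6.63) lay beside dog 2847 (6.65). Dog 2716 was already high at its 6 hr saline site, with 7.65 for IL6, 7.87 for SOCS3, 6.75 for OSMR and 7.14 for BCL3. Its change from saline to allergen was therefore small in IL6 (0.47), whereas that of dog 2704, from a saline value not above background, was 3.87. At 0 hr both dogs had the IL6 signal of the rest of their group (range 3.68 to 4.00), and at 24 hr both had a lower signal under allergen than under saline, as had the other dogs. Among the sensitized dogs, 2855 and 2838 were the highest and second highest at the 6 hr allergen site in all 4 genes.

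The same dogs also had a high mean of the neutrophil markers, which rested on S100A8. In nonsensitized dogs at the 6 hr allergen site S100A8, which keratinocytes can also express, had an SD of 2.13 and CXCR2 one of 0.20, and between the 6 hr sites of sensitized dogs they differed by 2.28 (SE 0.66) and 0.21 (SE 0.10), neither called. The mean signal of CXCR2 and S100A8, the 2 of 5 neutrophil markers with a named probe, was 11.34 in dog 2704 and 10.89 in dog 2716 at the 6 hr allergen site and 8.41 to 9.91 in the other 4 nonsensitized dogs. At the 6 hr saline site it was 10.63 in dog 2716 and 8.65 to 9.29 in the others. In sensitized dogs it ranged from 8.53 to 9.70 at the saline site and from 9.46 to 11.04 at the allergen site, with dogs 2838 (11.04) and 2855 (10.62) highest. The mean of the macrophage markers CD14, CD163 and MRC1 (3 of 5) ranged from 8.19 to 8.81 at the saline site and from 8.78 to 9.32 at the allergen site of sensitized dogs, where CD14 (1.12, SE 0.25, adjusted p = 0.0162) was called higher and CD163 (0.20) and MRC1 (0.54) were not. The mean of the mast cell markers (4 of 5 with a probe) ranged from 7.94 to 8.71 and from 8.32 to 9.05 at these sites. Of the 4, HDC, which makes histamine and is named by the list of the study, was called higher (0.98, SE 0.23, adjusted p = 0.0233), and KIT, MS4A2 and FCER1A were not. Their part in the result was not tested. The 6 hr allergen arrays of dogs 2704 and 2716 shared a slide with those of 2 dogs that had low IL6, 2800 and 2845.

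**Figure D2:**
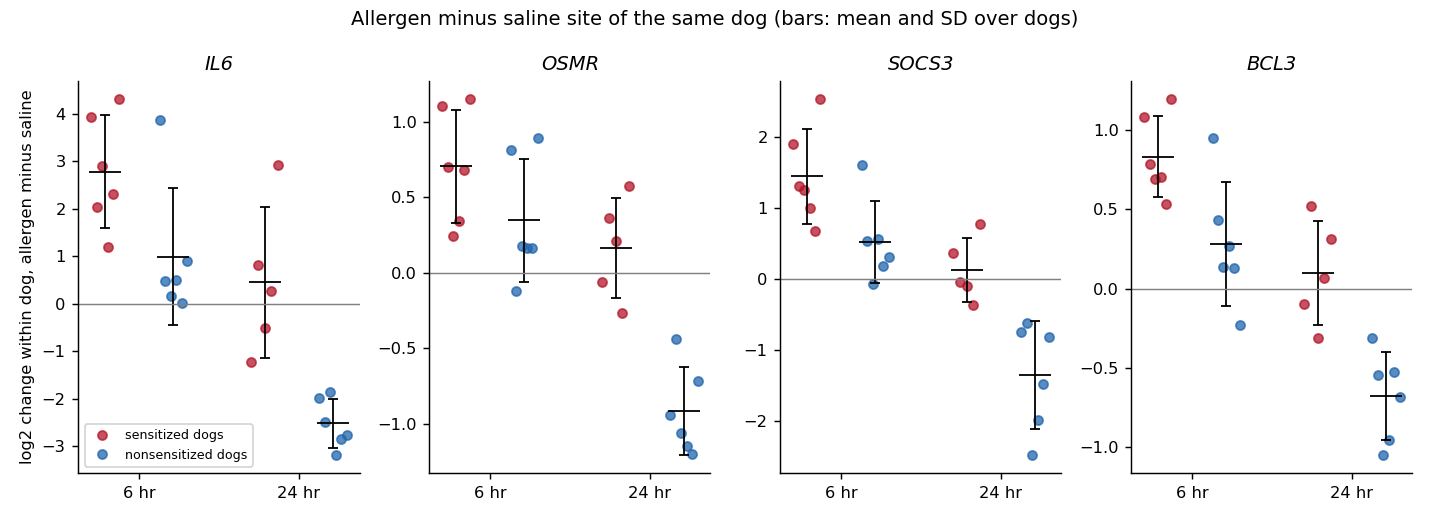
Log2 change from the saline to the allergen site of the same dog (y axis) at 6 hr and 24 hr (x axis), 1 panel per gene and 1 point per dog, with bars for the mean and SD over dogs. All sensitized dogs are above 0 at 6 hr and all nonsensitized dogs are below 0 at 24 hr, with IL6 changes of -3.18 to -1.86.

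At 24 hr the 4 genes were called between the sites of nonsensitized dogs, in the opposite direction, and not between those of sensitized dogs. In nonsensitized dogs IL6 fell by 2.52 on the log2 scale (SE 0.53) from the saline to the allergen site, SOCS3 by 1.35 (SE 0.26), OSMR by 0.92 (SE 0.17) and BCL3 by 0.68 (SE 0.15), and each gene was lower in 6 of 6 dogs. All 4 were called lower, beside 0.659% of all probes. The study listed these genes on the 24 hr values of the same arrays, so the 24 hr calls are not independent evidence of the direction.

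IL6 had 6.45, 7.20 and 7.73 at the 24 hr saline site of nonsensitized dogs and 4.20, 4.60 and 4.97 at their allergen site, where it was well above background on 1 of 6 arrays. Its groups did not overlap (adjusted p = 0.00479), and the change within dogs ran from -3.18 in dog 2802 to -1.86 in dog 2800. The size of the fall depends on how dim values are treated, with -4.35 after 75th percentile scaling, -3.92 without the filter and -1.53 after normexp correction. OSMR had 6.66, 7.21 and 7.35 at the saline site and 6.09, 6.20 and 6.45 at the allergen site, also without overlap (1.89-fold lower, adjusted p = 0.00099).

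SOCS3 had 7.18, 7.93 and 9.20 at the saline site and 6.15, 6.76 and 7.22 at the allergen site (adjusted p = 0.00202). The groups overlapped by the lowest saline and the highest allergen biopsy. The change ran from -2.47 in dog 2800 to -0.62 in dog 2716. BCL3 had 6.60, 7.02 and 7.43 against 6.06, 6.35 and 6.70, a 1.60-fold difference (adjusted p = 0.00666) with overlap of the groups and changes of -1.05 to -0.31. The BCL3 call was lost without dog 2800 or 2802 (adjusted p up to 0.0892), the IL6 call without dog 2802 (0.0614) and the SOCS3 call without dog 2800 (0.0606), whereas OSMR kept its call. On each of the 3 slides that held both sites, all 4 genes were lower at the allergen site, IL6 by -2.72, -1.74 and -3.18.

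In sensitized dogs the 4 genes had overlapping levels at both sites at 24 hr. IL6 had 5.31, 6.88 and 7.22 at the saline site, and at the allergen site 5.99 in dog 2838, 6.29 in dog 2841, 6.98 in dog 2840, 7.49 in dog 2853 and 8.24 in dog 2855. The ranges overlapped widely. The difference was 0.39 (SE 0.55, adjusted p = 0.930), made of changes from -1.23 in dog 2838 to 2.93 in dog 2855, and it was -0.18 without dog 2855. OSMR differed by 0.15 (SE 0.18), BCL3 by 0.07 (SE 0.15) and SOCS3 by -0.00061 (SE 0.27), with 3 of 5 dogs higher for OSMR and BCL3 and 2 of 5 for SOCS3. None of the 4 was called or had an unadjusted p below 0.05, beside 0.274% of all probes called in either direction.

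The difference between the groups of dogs in the 24 hr response is the contrast on which the study chose its list, and is given as a description. It was 2.90 for IL6 (SE 0.76), 1.35 for SOCS3 (SE 0.38), 1.07 for OSMR (SE 0.24) and 0.75 for BCL3 (SE 0.21). By size, the fall in nonsensitized dogs made up the larger part of it in all 4 genes, that of IL6 being measured against a site where 1 of 6 arrays had it well above background. The macrophage markers had a mean signal of 9.51 to 10.56 at the saline and 8.98 to 9.55 at the allergen site of nonsensitized dogs, and of 8.84 to 10.10 and 9.51 to 10.45 in sensitized dogs. Of the 3, only MRC1, named by the list of the study, was called lower in nonsensitized dogs (-0.97, SE 0.22, adjusted p = 0.0107), and none was called in sensitized dogs. Its difference between the groups of dogs was 1.61 (SE 0.32), again a description, since the list was chosen on this contrast. The neutrophil markers ranged from 9.68 to 10.89 at the saline site and from 9.34 to 10.82 at the allergen site of nonsensitized dogs. In sensitized dogs, in which the 4 genes were not called, they ranged from 9.73 to 10.68 and from 10.99 to 11.60, without overlap, with a difference of 2.44 for S100A8 (SE 0.69, adjusted p = 0.0895) and 0.03 for CXCR2 (SE 0.11). The mast cell markers ranged from 8.72 to 9.87 at the saline and from 8.30 to 8.85 at the allergen site of nonsensitized dogs, and from 8.44 to 9.28 and from 8.54 to 9.53 in sensitized dogs. Of the mast cell markers HDC was the only 1 called lower in nonsensitized dogs (-1.32, SE 0.23, adjusted p = 0.000402). It is also the only 1 of them named by the list of the study, so neither this call nor its difference between the groups of dogs (1.499, SE 0.33) is independent of the choice of that list. Their part in the result was not tested.

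Compared at the same site, differences between the groups of dogs passed the test at the 24 hr allergen site only. There the signal in sensitized dogs was higher by 2.37 for IL6 (SE 0.55, adjusted p = 0.00186), by 1.52 for SOCS3 (SE 0.27, 0.00011), by 0.92 for OSMR (SE 0.18, 0.00024) and by 0.66 for BCL3 (SE 0.15, 0.00195). The IL6 difference ran from 1.45 to 4.17 over the settings, all called, and IL6 was well above background on 1 of the 6 nonsensitized arrays. The values of IL6, OSMR and SOCS3 did not overlap between the groups of dogs, those of BCL3 did. All 4 were called, beside 3.54% of probes called higher. The contrast on which the study chose its list includes the values of this site, so these calls are not independent evidence. Of the cell type markers, CD14 (0.91), MRC1 (1.31), S100A8 (2.56), HDC (0.80) and the T cell marker LCK (0.69) were called higher at this site too, all but S100A8 being named by the list of the study, and their part in the result was not tested. With the slide as a block SOCS3 was 0.94 (adjusted p = 0.0572) and BCL3 0.51 (adjusted p = 0.0844), no longer called. BCL3 was under the fold limit after normexp (0.51) and with the scan session as a block (0.52), and so was the other SOCS3 probe (0.54). None of the 4 was called at the 24 hr saline site (2.37% of all probes called), at the 6 hr saline site or at the 6 hr allergen site (0% of probes at both). At an unadjusted p below 0.05 there were 0, 0 and 3 of the 4.

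Over time the saline site itself changed in both groups of dogs, with calls at 24 hr and none at 6 hr. From untreated skin to the 6 hr saline site none of the 4 genes was called in either group (2.64% and 2.26% of probes called in sensitized and nonsensitized dogs), and none had an unadjusted p below 0.05. From untreated skin to the 24 hr saline site, IL6, OSMR and SOCS3 were called higher in both groups and BCL3 in neither. In sensitized dogs IL6 was at least 4.47-fold higher, SOCS3 was higher by 1.40 (SE 0.26) and OSMR by 0.63 (SE 0.17), beside 4.35% of probes called higher. In nonsensitized dogs IL6 was at least 5.56-fold higher, SOCS3 was higher by 1.27 (SE 0.26) and OSMR by 0.82 (SE 0.17), beside 9.89%. Over the settings the IL6 log2 difference ran from 1.33 to 4.96 in sensitized and from 1.69 to 5.70 in nonsensitized dogs. These 3 genes were higher in 6 of 6 dogs of each group, and they were also called higher at 24 hr than at 6 hr of saline in both groups (1.66% and 4.37% of probes). The macrophage markers CD14, CD163 and MRC1 were called higher at this site than in untreated skin in both groups as well, by 1.04 to 1.79 in sensitized and 1.47 to 2.10 in nonsensitized dogs, as were S100A8 (2.38 and 2.14), HDC (1.37 and 1.77) and MS4A2 (0.81 and 1.33). CXCR2 (0.09 and 0.05) and KIT (-0.48 and -0.40) were not called, and FCER1A was called in nonsensitized dogs only (0.55 and 0.90). The part of these markers in the result was not tested. The BCL3 difference from untreated skin was 0.18 (SE 0.15) in sensitized and 0.30 (SE 0.15) in nonsensitized dogs. Without dog 2838 the OSMR difference in sensitized dogs was 0.51, under the 1.5-fold limit.

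Time points were mostly hybridized on different slides, so the slide and the time can hardly be told apart. Slides 1, 2 and 3 held 24 hr arrays only. The only other 24 hr array, from the allergen site of the sensitized dog 2840, was on slide 8 beside arrays of earlier times. The fixed slide block links 24 hr to earlier times through that array alone, so calls kept or lost under it cannot separate slide from time. With the slide as a block, of these 6 calls at the saline site only SOCS3 in sensitized dogs was still called (1.80, adjusted p = 0.0298), while IL6 had adjusted p of 0.0779 and 0.122. With the scan session as a block, chosen after seeing the data, IL6 (adjusted p = 0.0680 and 0.0702 in sensitized and nonsensitized dogs) and OSMR in sensitized dogs (0.0790) were not called, and after normexp OSMR in sensitized dogs was under the fold limit (0.49). Of the calls between 6 hr and 24 hr of saline, the slide block also left only that of SOCS3 in sensitized dogs. The adjusted p was 0.0599 and 0.130 for IL6 and 0.0526 and 0.0599 for OSMR in sensitized and nonsensitized dogs, and 0.0548 for SOCS3 in nonsensitized dogs. Over all settings these differences were never below 1.29 and 1.30 for IL6 and 0.68 and 0.74 for OSMR, past the fold limit.

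At the allergen site of sensitized dogs calls against untreated skin were found at both times. At 6 hr IL6 was at least 6.24-fold higher than in untreated skin, SOCS3 was higher by 1.15 (SE 0.26) and BCL3 by 0.61 (SE 0.15), all called, and OSMR differed by 0.41 (SE 0.17, adjusted p = 0.0791), beside 2.21% of probes. The IL6 log2 difference ran from 1.71 to 5.21 over the settings. The BCL3 difference was under the 1.5-fold limit without dog 2838 (0.49), 2839 (0.54) or 2855 (0.55), after normexp (0.46) and with array weights (0.51). With the slide as a block 0 of the 4 genes were called, with 1.12 for SOCS3 (adjusted p = 0.0822), 0.61 for BCL3 (0.111) and an adjusted p of 0.0831 for IL6. With the scan session as a block BCL3 was not called (adjusted p = 0.0581). At 24 hr IL6 was at least 5.85-fold higher, SOCS3 by 1.40 (SE 0.27) and OSMR by 0.78 (SE 0.18), whereas BCL3 differed by 0.25 (SE 0.15, adjusted p = 0.187), beside 7.61% of probes. Here the IL6 log2 difference ran from 1.62 to 5.38 over the settings. No gene was called between 6 hr and 24 hr at this site (2.06% of probes called), though OSMR (0.38) and BCL3 (-0.35) had unadjusted p below 0.05. Cell type markers were called against untreated skin at this site as well, at 6 hr CD14 (1.30), MRC1 (0.71), S100A8 (2.48), HDC (1.22) and the endothelial marker KDR (0.79). Of the other markers of these cell types at 6 hr, CD163 (0.35), CXCR2 (0.01), KIT (-0.11), MS4A2 (0.69), FCER1A (0.33) and the endothelial marker VWF (-0.51) were not called. The markers called at 24 hr were CD14 (1.72), CD163 (1.40), MRC1 (2.43), S100A8 (4.82), LCK (0.82), MS4A2 (1.40), FCER1A (1.09), HDC (1.54) and KDR (0.61), with VWF lower (-0.74). KIT had means of 8.295 in untreated skin and 7.77 at this site at 24 hr, and CXCR2 had 5.352 and 5.469, neither called. The part of these markers in the result was not tested.

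At the allergen site of nonsensitized dogs none of the 4 first probes was called against untreated skin at 24 hr. At 6 hr only IL6 was called against untreated skin, at least 2.32-fold higher (adjusted p = 0.0153, beside 1.04% of probes), and the call was lost without dog 2704 (adjusted p = 0.178) or dog 2716 (adjusted p = 0.0870), after normexp (0.0641), and with the slide as a fixed (0.698) or random block (0.133) or the scan session as a block (0.429). Over the settings this IL6 log2 difference ran from 1.045 to 3.176. At 24 hr 17% of probes were called. IL6 was well above background on 1 of 6 arrays, and its mean of 4.63 lay under the bound for untreated skin, so no difference is given. The differences from untreated skin were -0.10 for OSMR (SE 0.17) and -0.08 for SOCS3 (SE 0.26), whereas the other SOCS3 probe, with a RefSeq name, had -0.64 (SE 0.11, adjusted p = 8.3e-06) and was lower in 6 of 6 dogs. BCL3 had one of -0.37 (SE 0.15, adjusted p = 0.0332), which was under the 1.5-fold limit. Of the cell type markers, CD14 (0.93) and HDC (0.73) were called higher than in untreated skin at 6 hr. CD163 (0.26), MRC1 (0.62), S100A8 (1.23), CXCR2 (0.12) and KIT (-0.24) were not. At 24 hr CD14 (0.85), CD163 (0.97), MRC1 (1.13) and S100A8 (1.75) were called higher and VWF lower (-0.80), and CXCR2 (0.02) and KIT (-0.53) were not called. The part of these markers in the result was not tested. From 6 hr to 24 hr BCL3 fell by 0.68 (SE 0.15, adjusted p = 0.00056) and SOCS3 by 0.73 (SE 0.26, adjusted p = 0.0305), beside 5.82% of probes called lower, and IL6 differed by -1.25 (SE 0.53, adjusted p = 0.0679), which was called with the dog as a replicate block (adjusted p = 0.0403 fixed and 0.0323 random). Without dog 2704 the falls were -0.63 for SOCS3 and -0.58 for BCL3 and without dog 2716 they were -0.51 for both, and neither was called. The SOCS3 call was also lost without dog 2800 (adjusted p = 0.0596). With the slide as a block BCL3 was -0.35 (adjusted p = 0.710) and SOCS3 0.12 (0.952), with the scan session -0.50 (0.289) and -0.42 (0.670), after normexp -0.50 and -0.54, and unscaled -0.38 and -0.37, and neither was called in these settings. SOCS3 was not called with the slide as a random block either (-0.53, adjusted p = 0.258).

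Ordered by mean signal, IL6 was highest at the nonsensitized 24 hr saline site (7.15 ± 0.44, SD, n = 6), followed by the sensitized 6 hr allergen (7.09 ± 1.20), 24 hr allergen (7.00 ± 0.91, n = 5) and 24 hr saline sites (6.61 ± 0.75). Only 2 of its 9 neighbouring pairs of groups, both among the dim groups, differed by more than the larger SD. OSMR was highest at the 24 hr allergen site of sensitized dogs (7.13 ± 0.24) and SOCS3 at their 24 hr saline site (8.28 ± 0.50), and 0 of 9 neighbouring pairs differed by more than the spread in either gene. BCL3 alone had its highest mean at a 6 hr site, the allergen site of sensitized dogs (7.35 ± 0.28), and its lowest at the 24 hr allergen site of nonsensitized dogs (6.34 ± 0.24), with 1 of 9 pairs beyond the spread.

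**Figure D3:**
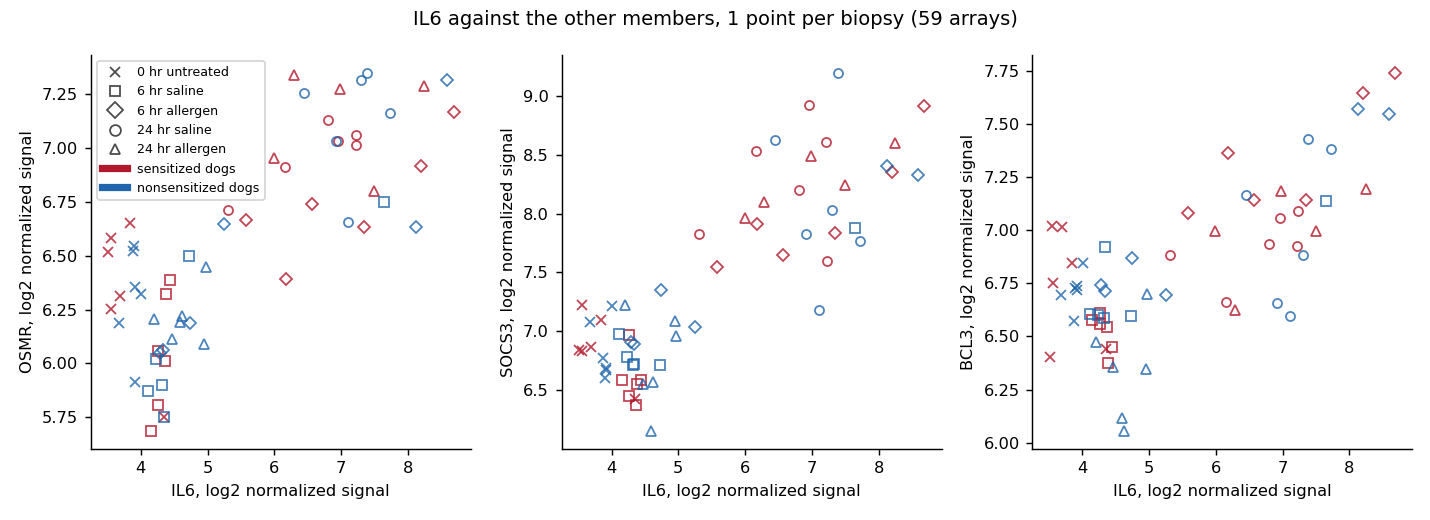
Log2 normalized signal of IL6 (x axis) against OSMR, SOCS3 and BCL3 (y axes), 1 point per biopsy on 59 arrays, with the site shown by the symbol and the group of dogs by the colour. Biopsies with IL6 above 6 mostly have higher signals of the other 3 genes than those with IL6 below 5, among them all of untreated skin, with overlap in all 3.

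The signals of the 4 genes were positively correlated over the 59 arrays. Pearson's r was 0.844 for IL6 and SOCS3, 0.839 for OSMR and SOCS3, 0.785 for IL6 and OSMR, 0.756 for SOCS3 and BCL3, 0.720 for IL6 and BCL3 and 0.599 for OSMR and BCL3. For comparison, the 99th percentile of r with all other probes was 0.811 for IL6, 0.704 for OSMR, 0.724 for SOCS3 and 0.611 for BCL3. The study listed these genes on the 24 hr values of the same arrays, so a high r is partly given by that choice. The points are not independent, since each dog gave 5 biopsies and the arrays share slides and groups. After the group means were removed r was 0.447 to 0.702. The 99th percentile with all other probes was then 0.642 for IL6, 0.503 for OSMR, 0.563 for SOCS3 and 0.545 for BCL3. The r of OSMR and BCL3 (0.447) lay under the percentile of both genes. Within the 12 biopsies of the 6 hr allergen site r was 0.724 to 0.977, with the highest for SOCS3 and BCL3. It was 0.193 to 0.850 within the 6 hr saline site, 0.068 to 0.675 within the 24 hr saline site and 0.113 to 0.674 within the 24 hr allergen site, where IL6 and SOCS3 had 0.850, 0.068 and 0.425. In untreated skin r with IL6 was -0.557 to -0.294, where IL6 was not above background.

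Of the genes with a symbol, the ones most like IL6 over the 59 arrays were ADAMTS4 (r = 0.962), a protease of the extracellular matrix, and the monocyte chemokines CCL2 (0.932) and CCL8 (0.930). SOCS3 was most like TNFAIP6 (0.905), a hyaluronan binding protein of inflamed tissue, STAT3 itself (0.904) and the receptor TNFRSF1A (0.903). OSMR was most like PTX3 (0.866), a soluble pattern recognition protein, UGDH (0.845), which makes a precursor of hyaluronan, and TNFRSF1A (0.844). BCL3 was most like CD274 (0.805), which encodes PD-L1, BHLHE40 (0.785) and CCL8 (0.763, a probe other than the above). Of the 12 matches, only CCL2 and CCL8 beside IL6 were named by RefSeq. The others bear names from the gene list of the study, which was chosen on these arrays, so likeness to listed genes is partly given by the naming.

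Of the wider route few genes had a named probe past the filter. These were IL31 and IL6 of 9 ligands, LIFR, CNTFR and OSMR of 9 receptors, STAT3 of 11 JAK and STAT genes, SOCS3 of 13 inhibitors, 12 of 26 STAT3 targets, 4 of 16 NF-kB and IkB genes and 6 of 7 inducers of IL6. For the STAT3 targets, the 7 named by RefSeq and the 3 named only by the list of the study are counted apart, SOCS3 and BCL3 left out.

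At 6 hr in sensitized dogs 2 of the 7 RefSeq-named STAT3 targets were called higher and none lower, beside 0.402% of all probes called higher, with a median log2 difference of 0.32 against -0.0012 over all probes. They were ICAM1, a leukocyte adhesion molecule (1.81, SE 0.28, adjusted p = 0.000239), and the transcription factor MYC (1.01, SE 0.20, adjusted p = 0.00356). TIMP1, an inhibitor of metalloproteinases, had 1.37 (SE 0.36, adjusted p = 0.0597). All 3 study-named targets were called, namely SERPINA3, an acute phase protease inhibitor (3.17, SE 0.53), CEBPD, a transcription factor of the acute phase response (1.27, SE 0.22), and FGL2 (1.13, SE 0.26). STAT3 had 0.45 (SE 0.13, adjusted p = 0.101). No inducer of IL6 and no further NF-kB gene was called, and none of these lists had a called gene in nonsensitized dogs at 6 hr, where ICAM1 differed by 0.54 (SE 0.28) and SERPINA3 by 1.55 (SE 0.53). In place of these 5 genes of the lists, 3 were called in sensitized dogs without dog 2838, 3 without dog 2855, 0 in a fit of the 6 hr arrays alone and 8 with the slide as a block.

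**Figure D4:**
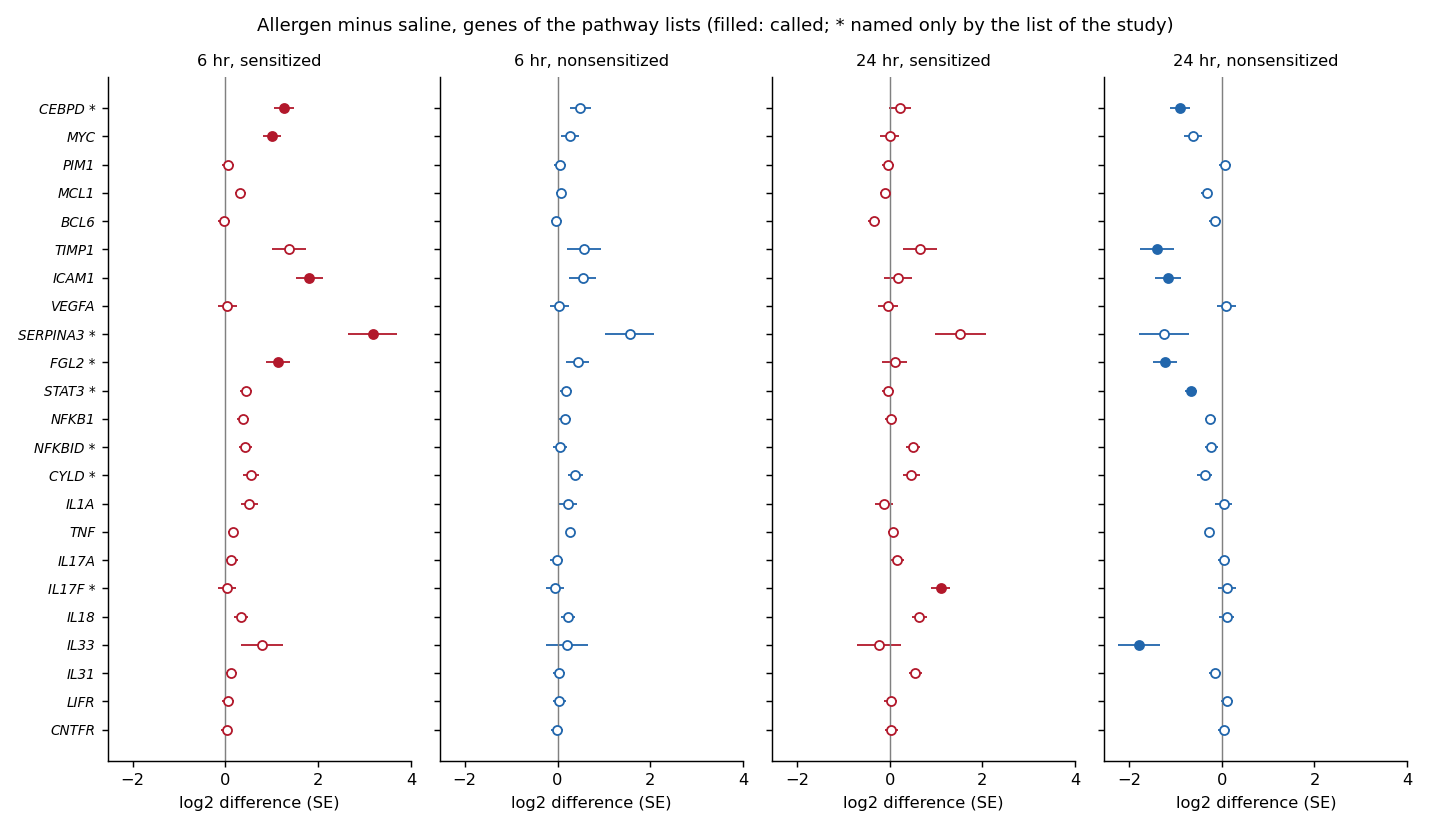
Log2 difference between allergen and saline sites (x axis, bars: SE) of the 23 other genes of the pathway lists (y axis) at 6 hr and 24 hr in sensitized (red) and nonsensitized dogs (blue), filled where the gene was called, with a star where only the list of the study names the probe. In sensitized dogs 5 genes were called at 6 hr and 1 at 24 hr, and in nonsensitized dogs 0 and 6.

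At 24 hr in nonsensitized dogs 2 of the 7 RefSeq-named targets were called lower at the allergen site, beside 0.659% of all probes, with a list median of -0.32 against 0.0063 over all probes. They were TIMP1 (-1.39, SE 0.36, adjusted p = 0.0280) and ICAM1 (-1.15, SE 0.28, adjusted p = 0.0206). FGL2 (-1.22, SE 0.26) and CEBPD (-0.90, SE 0.22) of the 3 study-named targets were called as well, as was STAT3 (-0.66, SE 0.13, adjusted p = 0.00222), named by the same list. That list was chosen on 24 hr values that include this comparison, so the calls of FGL2, CEBPD and STAT3 are not independent evidence. Among the inducers of IL6, IL33, an alarmin of the skin, was the only 1 of 6 called, with -1.78 (SE 0.45, adjusted p = 0.0251). In place of these 6 genes of the lists, 0 were called without dog 2802, 1 without 2800, 2 without 2847 and 3 without 2845.

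In sensitized dogs at 24 hr no STAT3 target was called, and SERPINA3 differed by 1.53 (SE 0.56, adjusted p = 0.243). IL17F, a cytokine of type 17 immunity, was called higher at the allergen site (1.10, SE 0.20, adjusted p = 0.00285, beside 0.174% of probes). Its probe is dim, well above background on 1 of 6 arrays at the saline site and on 5 of 5 at the allergen site. The median difference of the 5 RefSeq-named inducers was 0.06. In place of this 1 gene of the lists, 0 were called without dog 2855, and 2 without dog 2704, 2716, 2802, 2841 or 2853 or with the dog as a replicate block. IL31, which signals through OSMR, differed by 0.56 (SE 0.14, adjusted p = 0.0378), under the 1.5-fold limit. In nonsensitized dogs IL31 differed by -0.15 (SE 0.13), and its difference between the groups of dogs was 0.70 (SE 0.19, adjusted p = 0.0431), which was called, beside 0.6% of probes called higher. IL31 was dim, with 1 of 6 arrays well above background at each 24 hr site of nonsensitized dogs.

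At the 24 hr saline site several of the same genes were above untreated skin in both groups of dogs. STAT3 was higher by 0.75 (SE 0.13) in sensitized and 0.83 (SE 0.13) in nonsensitized dogs, ICAM1 by 1.26 (SE 0.28) and 1.59 (SE 0.28), TIMP1 by 1.86 (SE 0.36) and 2.43 (SE 0.36), and IL33 by 2.40 (SE 0.45) and 2.52 (SE 0.45), all called. CEBPD, MYC, SERPINA3 and FGL2 were called higher there in both groups too, beside the 4.35% and 9.89% of probes given above. Other genes of the lists went the other way. In nonsensitized dogs the STAT3 targets PIM1 (-0.88) and VEGFA (-0.92), the receptor LIFR (-0.90) and the IL6 inducer IL17A (-0.79) were called lower, beside 5889 of 45972 probes. None of them was called in sensitized dogs, where PIM1 differed by -0.53. With the slide as a block only STAT3, IL33 and FGL2 of these genes were called in both groups and CEBPD in sensitized dogs. As given above, that block links 24 hr to untreated skin through 1 array.

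The second probes of the genes were read beside the first. Both IL6 probes carry the same accession and went together (r = 0.986 over 59 arrays). The dimmer one differed by 1.62 between the 6 hr sites of sensitized dogs (SE 0.39, adjusted p = 0.0355) and by -1.83 between the 24 hr sites of nonsensitized dogs (SE 0.39, adjusted p = 0.0061), both called. The other OSMR probe, DN877577, correlated with the first at r = 0.755. It differed by 0.75 at 6 hr in sensitized dogs (SE 0.19, adjusted p = 0.0570, not called) and by -0.85 at 24 hr in nonsensitized dogs (SE 0.19, adjusted p = 0.0100, called).

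SOCS3 has another probe on the array, which bears the RefSeq accession NM_001031631 and is not part of the rule, and it was only weakly correlated with the first over the 59 arrays (r = 0.297), though more so after the group means were removed (r = 0.689, against 0.498 for the OSMR probes). Its signal ranged from 4.67 to 5.79 over the 59 arrays. It differed by 0.04 at 6 hr in sensitized dogs (SE 0.11, adjusted p = 0.991) and by -0.21 at 24 hr in nonsensitized dogs (SE 0.11, adjusted p = 0.482), and neither was called. All SOCS3 changes given above are therefore those of a probe whose name comes from the annotation of the study alone. In the difference between the groups of dogs in the 24 hr response, the first probe had 1.35 and the other 0.27. The study also measured this difference by quantitative PCR, with SOCS3 primers on the accession of the other probe. It reported a higher response in sensitized dogs, larger in fold than its array value, without reaching significance. Which of the probes follows the SOCS3 transcript was not tested here.

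The biopsy that was left out, from the 24 hr allergen site of the sensitized dog 2839, had signals of 5.69 for IL6, 7.56 for OSMR, 8.19 for SOCS3 and 6.50 for BCL3 when all 60 arrays were scaled together. On that scale the 5 other biopsies ranged from 5.94 to 8.22 for IL6, from 6.76 to 7.31 for OSMR, from 7.94 to 8.58 for SOCS3 and from 6.58 to 7.17 for BCL3. Only SOCS3 lay within the range of its group, and 67.65% of the spots of this array were well above background, fewer than on any other.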

How the data were processed

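Total RNA of 60 biopsies was measured on one-colour Agilent canine arrays, and the intensity values used are the processed signals that the authors deposited, made with Agilent Feature Extraction 10.7.3.1 by subtracting background, without scaling between arrays. Flagged outlier spots were treated as missing, and spots were kept if 5 or more arrays of any group had them well above background. The deposited signals were brought to a log2 scale by variance stabilization, as in the methods of the study. The vsn package was not at hand, so its model was rebuilt and checked against simulated signals. Replicate spots were averaged per probe, and limma 3.58.1 (statmod 1.5.0, R 4.3.3) fitted 10 group means jointly and unpaired. In simulated data for the 6 hr comparison, 91% of 2-fold and 100% of 4-fold changes were recovered, with 4 false calls among 45698 probes. Biopsies of 1 dog are paired by the labels: residuals had a median r of 0.386 within and -0.0437 between dogs.

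The members and gene lists were chosen with earlier results of these data known. Named were all member probes, of each list up to 6 genes called in an allergen minus saline comparison or their difference, and for each member the 3 most correlated genes with a symbol. Of the array identifiers, 1067 were named through a RefSeq table and 538 only through the annotation of the study, in whose gene list the fold change and p-value columns were not used. Python 3.11.15 with numpy 2.4.6, matplotlib 3.10.9 and pandas 2.3.3 made the summaries. Alternatives were other scalings, filters and backgrounds, all 60 arrays, a fit per time point, dog, slide or scan session as a block, each dog left out, and other probes. Promoter motifs were not analysed here.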

Additional observations from a re-analysis of the deposited data

Results flagged for a closer look

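In 4 of 40 gene and group combinations, 1 dog lay apart from the rest of its group by Dixon's criterion, which chance alone meets in about 1 of 20 groups. Dog 2716 had an IL6 signal of 7.65 at the 6 hr saline site of nonsensitized dogs, with the next dog at 4.73, and a SOCS3 signal of 7.87 at the same site, with the next at 6.97. The neutrophil markers were highest in this biopsy too, and their part in the result was not tested. Dog 2847 had an OSMR signal of 6.45 at the 24 hr allergen site of nonsensitized dogs, above the 6.09 to 6.22 of the others. Dog 2853 had a SOCS3 signal of 6.97 at the 6 hr saline site of sensitized dogs, above the 6.37 to 6.59 of the others.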

How the results depend on the processing

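Over the 33 called changes of the 4 genes, the call was kept in 884 of 960 pairs of a change and a setting. These include fits without a dog of the other group, which leave a difference within 1 group of dogs nearly as it was. The share kept therefore overstates stability. Differences of dim probes depend on the treatment of low signals, and array number limits the precision. In the fit of the 6 hr arrays alone the changes at 6 hr in sensitized dogs were the same in size (IL6 2.78, SOCS3 1.45, BCL3 0.83, OSMR 0.71) but 0 members and 0 pathway genes were called. That fit used fewer arrays, and the cause of the lost calls was not tested. OSMR was not called there after normexp (0.53) or with its other probe (0.75). For BCL3 in nonsensitized dogs at 24 hr, normexp gave -0.51 and all 60 arrays with weights gave -0.56, under the fold limit. The IL6 difference between the groups of dogs at 24 hr was 4.78 after 75th percentile scaling, 4.86 unscaled, 4.49 after quantile scaling, 4.34 without the filter and 1.82 after normexp. Where no cause is named, the cause was not tested.

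With the other SOCS3 probe, chosen after seeing the data, SOCS3 was 0.044 at 6 hr in sensitized dogs (difference between groups of dogs -0.066), -0.21 at 24 hr in nonsensitized and 0.062 in sensitized dogs (difference 0.27). Against untreated skin it was -0.078 at the 6 hr allergen site, -0.017 at the 24 hr allergen site and -0.079 at the 24 hr saline site of sensitized dogs, and -0.43 at the 24 hr saline site of nonsensitized dogs. There it was -0.27 from 6 hr to 24 hr. At the 24 hr allergen site of nonsensitized dogs it was -0.64 against untreated skin (adjusted p = 8.3e-06), which was called where the first probe was not, and -0.59 from 6 hr to 24 hr, also called.

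Signs turned for values that were not called. At 24 hr in sensitized dogs BCL3 was -0.0028 with all 60 arrays and -0.022 with the slide as a block, and SOCS3 was 0.0055 after 75th percentile scaling, 0.012 after quantile scaling and 0.00022 without the filter. For the 24 hr allergen site of nonsensitized dogs against untreated skin, IL6 was -0.085 with the scan session as a block. OSMR was 0.24 unscaled, 0.20 with the slide as a block, 0.22 as the mean over its probes and 0.53 with its other probe. SOCS3 was 0.31 unscaled, 0.68 with the slide as a fixed and 0.073 as a random block, and 0.21 with the scan session. From 6 hr to 24 hr at that site SOCS3 was 0.12 with the slide as a block.

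With the dog as a replicate block, SOCS3 at 24 hr in sensitized dogs was 0.023 (fixed) and 0.014 (random), and pathway genes called there were 2 in place of 1. All 62 pairs of a called change and a dog block kept the call. Apart from the comparison the list of the study was chosen on, the fixed block (68 values) and the random block (88 values) each added 1 call and lost 0, the added one being IL6 from 6 hr to 24 hr at the allergen site of nonsensitized dogs. Pathway genes called at 6 hr in sensitized dogs were 8 in place of 5 with the slide as a block. At 24 hr in sensitized dogs they were 2 with all 60 arrays, the slide, the scan session or a stricter filter, 5 with array weights and 0 unscaled.

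Leaving out each dog in turn gave, at 6 hr in sensitized dogs, ranges of 2.48 to 3.1 for IL6, 0.62 to 0.80 for OSMR, 1.23 to 1.60 for SOCS3, with 2 to 4 members and 3 to 6 pathway genes called. At 24 hr in nonsensitized dogs it gave -2.65 to -2.38 for IL6, -1.49 to -1.12 for SOCS3 and -0.75 to -0.60 for BCL3, with 2 to 4 members and 0 to 6 pathway genes called. At 24 hr in sensitized dogs it gave -0.18 to 0.76 for IL6, -0.17 to 0.13 for SOCS3 and -0.025 to 0.17 for BCL3, with 0 to 2 pathway genes called. SOCS3 at the 24 hr allergen site against untreated skin of nonsensitized dogs ran from -0.19 to 0.027.

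Over all probes the allergen and saline sites gave 192 calls at 6 hr and 126 at 24 hr in sensitized dogs, and 16 and 352 in nonsensitized dogs. With the dog as a fixed replicate block these were 408, 498, 29 and 619, with the dog as a random block 414, 383, 29 and 598, and with fits per time point 12 and 70 in sensitized dogs and 3 at 6 hr in nonsensitized dogs. With the slide as a block the calls in sensitized dogs were 383 and 365 (random block 319 at 6 hr), and with the scan session, a block chosen after seeing the data, 324 and 234. Those at 24 hr in sensitized dogs were 37 unscaled, 771 with all 60 arrays (335 higher) and 847 with array weights (667 higher), and the weights gave 372 at 6 hr. Of the 352, 49 probes were higher and 303 lower, against 99 and 273 after 75th percentile scaling and 14 and 366 unscaled.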
